A study of Arabidopsis thaliana with 16 samples.

Results

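The genes described here are 50 Arabidopsis thaliana genes whose array signal was lower in plants kept in blue light than in plants kept in white light, in each of 4 same-numbered pairs of samples. They were chosen on that difference, from 491 features (spots of the array) that were above 0 in all 16 columns and paired with exactly 1 gene, out of 3439 features in the series. Limits of the choice were a mean blue minus white difference of at most -1 on the log2 scale and a difference below -0.5 in every pair. In all, 52 features passed, and 2 of them, AT5G52810 and PRA1.B3, were left out by the rule. The same limits held for 10.6% of the single-gene features and for 13.1% of all 2498 features above 0 in every column. Mirrored limits in the other direction held for 13.4% of the single-gene features. All differences between the lights below are therefore a description of how the genes were chosen, and no p-value of that contrast is given for any of them.

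Total RNA came from wild-type plants of the ecotype Landsberg that had spent 48 hours in blue light (8 columns) or 48 hours in white light (8 columns), both at 20 µE. The sources used here do not name the organ, the plants' age or the light before those 48 hours. Replicates 1 and 2, 3 and 4, 5 and 6, and 7 and 8 of a light were most like each other, in 16 of 16 columns. The rule therefore averages them, which left n = 4 averaged samples per light, called samples 1 to 4. The labels do not say whether these came from separate plants, so their spread may be technical.

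Blue light is sensed in plants by the cryptochromes, the phototropins and the ZEITLUPE family, which act on transcription, growth, chloroplast position and the clock. White light also holds red light, which the phytochromes sense. A change from white to blue light at 1 fluence rate thus alters which receptors are excited and which wavelengths drive photosynthesis. None of 12 genes on a list of blue light receptors and their signalling partners, and none of 5 phytochrome and PIF genes, had a single-gene feature. Root, seed and flower markers had none either, and the 5 single-gene features of photosystem and antenna genes were all above 0 in every column.

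Blue light columns summed to between 3067 and 3735 units of signal, against 1044 to 3320 units for white light columns. White light replicates 7 and 8 (white light sample 4) stood apart, at 1044 units each, and blue light replicates 7 and 8 had the lowest totals of their group. Without sample 4 of both lights, and so with 1 pair fewer to meet the limit, 60 genes were chosen, among them 48 of the 50. Because the arrays differed in brightness, the 2498 features were brought to 1 distribution by quantile normalization, and a level below is the log2 of the normalized signal in arbitrary units. "Lower" thus means lower relative to the other features of the same array. As deposited, the median feature was 1.35 higher in blue light on the log2 scale, while the median of the 50 genes was at -0.14. Of the 50 genes, 30 were lower in blue light as deposited and 20 were higher, whereas 89.4% of all features were higher. The direction of those 20 genes therefore holds after scaling only.

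Over the 50 genes the mean difference ran from -3.95 to -1.02, with a median of -1.45, beside a median of -0.02 over all 2498 features. The difference was -3 or beyond in 3 genes, -2 or beyond in 8 genes, between -2 and -1.5 in 16 genes, and weaker than -1.5 in 26 genes. Every single pair was at -1 or beyond in 23 genes. The SD between the 4 pair differences of a gene ran from 0.14 to 1.83, with a median of 0.38, against 0.48 over all features. The limit on every pair favours genes with a small SD, so nothing is read from that comparison. Ranks here and below are among the 2498 features. On average over the 4 samples, the median gene ranked at percentile 24.96 in blue light and at percentile 69.96 in white light. For 27 genes the mean rank was below the middle of these features in blue light and above it in white light. The remaining genes stayed on 1 side of the middle, such as AT5G38360 with its strong signal and AT3G56250 with its weak signal.

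**Figure D1:**
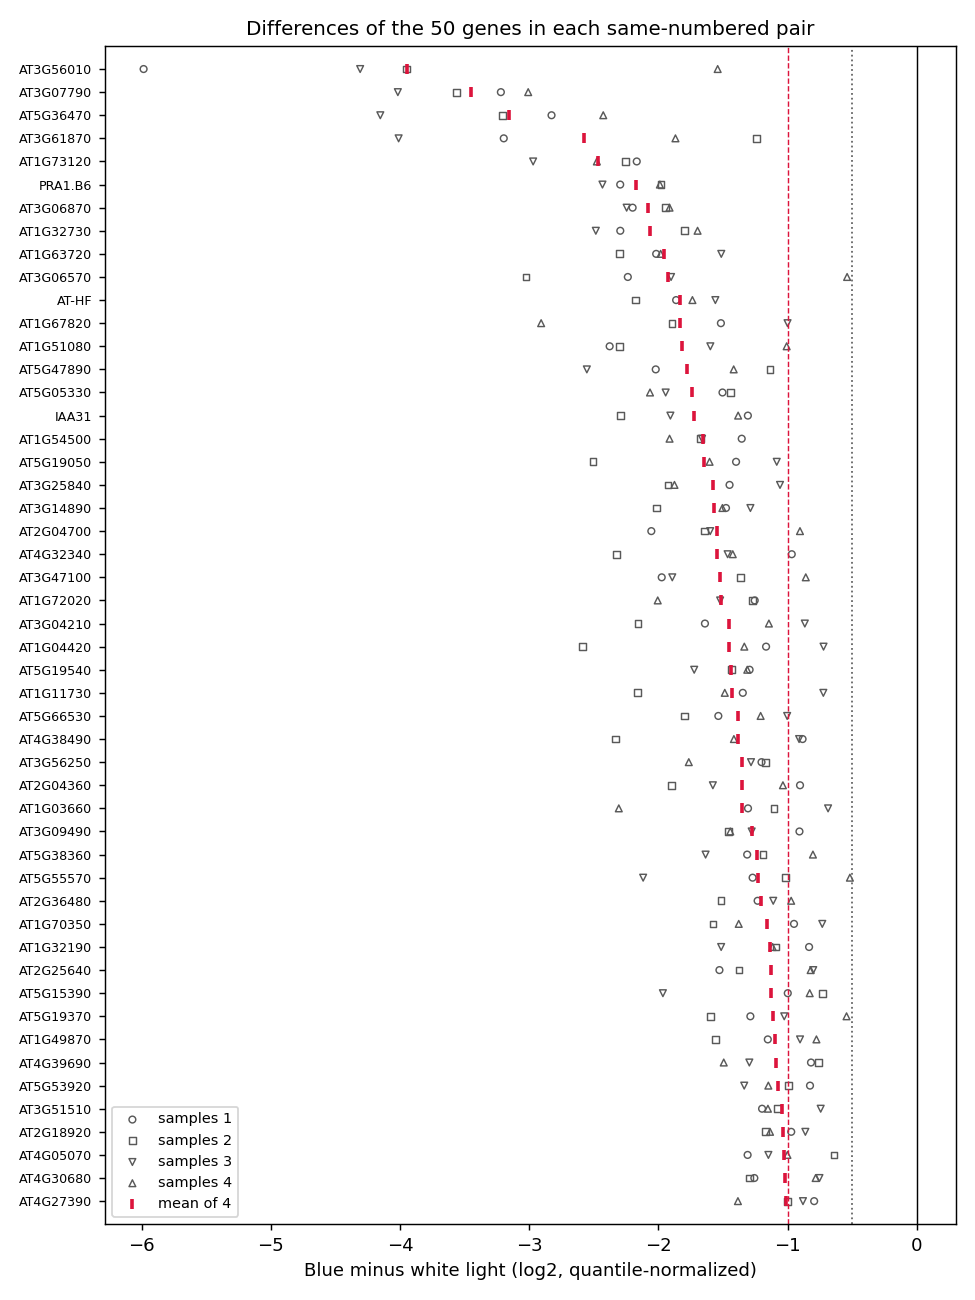
Blue minus white light difference (log2, quantile-normalized) of each of the 50 genes, from the largest mean difference (top) to the smallest. Open symbols are the 4 same-numbered pairs, red bars their mean, and the dashed and dotted lines mark the limits of -1 for the mean and -0.5 for each pair. The pairs of AT3G56010 and AT3G61870 lie far apart, and those of PRA1.B6 and AT3G06870 close together.

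Roles of 25 of the 50 genes are known with enough certainty to describe them by function. They comprise 8 genes of transcription, RNA, translation and DNA repair, 7 metabolic enzymes and 4 signalling genes. A further 4 are genes of chloroplast and mitochondrial electron transfer or membranes, and 2 are genes of membrane traffic and protein folding. The other 25 are given by locus only. These groups were drawn up after the genes had been chosen, and the gene tables hold no descriptions from which the same groups could be counted over all features.

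Among genes of transcription, RNA processing, translation and DNA repair, AT3G07790 had the largest difference. It encodes a protein related to DGCR14, which is known in human cells as a component of spliceosomes. In blue light its log2 level was -4.01, -4.32, -4.24 and -3.38 in samples 1 to 4, against -0.79, -0.76, -0.22 and -0.38 in white light. The highest blue light sample lay 2.59 below the lowest white light sample, the widest gap among the 50 genes. Its mean difference was -3.45 (SD 0.44 over 4 pairs, 10.9-fold), and its mean rank was at percentile 2.76 in blue light and 72.5 in white light. The difference was -1.94 as deposited, -2.64 scaled to total signal and -2.39 with a pseudocount. It was the 1 gene among the 50 that met the limits under all of median centring, no normalization, scaling to total signal and cyclic loess.

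AT5G05330 encodes a protein with an HMG box, a domain that binds and bends DNA. Its levels were -2.34, -2.001, -2.70 and -1.87 in blue light samples 1 to 4, against -0.84, -0.56, -0.76 and 0.19 in white light. The groups did not overlap, and sample 4 was the highest in both lights. The mean difference was -1.74 (SD 0.31), and -0.34 as deposited.

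Other genes of this group had differences between -1.58 and -1.02. AT3G25840, a kinase of the PRP4 type that is linked to pre-mRNA splicing, was at -1.58 (SD 0.41). AT3G14890, a DNA phosphatase that cleans the ends of broken strands during repair, was at -1.57 (SD 0.31). AT2G25640, related to the transcription elongation factor S-II, was at -1.13 (SD 0.37), and its blue light sample 3 (0.55) lay above its white light sample 4 (-0.10). That overlap was between different sample numbers. Sample 3 was the highest and sample 4 the lowest in both lights, and the differences within pairs 3 and 4 were -0.80 and -0.82.

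Genes acting on ribosomes and translation were near the limit of the choice. AT5G15390, of a family of tRNA and rRNA methyltransferases, was at -1.13 (SD 0.57). AT5G53920, related to the methyltransferase of ribosomal protein L11, was at -1.08 (SD 0.22), and AT4G30680, related to the initiation factor eIF4G, at -1.02 (SD 0.29). As deposited all of these 3 genes were higher in blue light, by 0.38, 0.32 and 0.42, which was less than the 1.35 of the median feature.

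The signalling genes include a repressor of auxin responses. IAA31 belongs to the Aux/IAA family, many members of which block auxin response factors until auxin triggers their breakdown. It was the single gene with an IAA number as its symbol that had a feature of its own. Family members under other symbols were not searched for. Its levels were -0.74, -1.16, -1.25 and -1.25 in blue light, against 0.57, 1.14, 0.66 and 0.13 in white light. All 4 blue light samples lay below all 4 white light samples. Its mean difference was -1.72 (SD 0.47, 3.30-fold), and it was -0.66 as deposited. A second feature that the annotation pairs with IAA31, IAA30 and IAA20 together differed by -0.70 (SD 0.61), with 1 pair at 0.16.

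AT3G06570 encodes a kelch repeat protein of the F-box type, a class of adaptors that select proteins for ubiquitination. Blue light levels were -0.25, -0.32, 0.16 and -0.32, against 1.99, 2.70, 2.06 and 0.22 in white light. White light sample 4 was thus close to the blue light samples, and the difference in pair 4 was -0.54, just inside the limit of -0.5. On average the difference was -1.93 (SD 1.04), and -2.35 without sample 4.

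AT1G67820, a protein phosphatase of the type 2C family, had levels of -2.84, -2.73, -3.08 and -4.25 in blue light, against -1.32, -0.83, -2.08 and -1.34 in white light. In pair 4 the difference was -2.91 and in pair 3 it was -1.001, and the mean was -1.83 (SD 0.81). A feature shared between this gene and 3 other genes differed by -0.19 (SD 0.29). AT3G04210, which encodes a protein with the TIR and nucleotide-binding domains of disease resistance receptors, differed by -1.45 (SD 0.57).

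**Figure D2:**
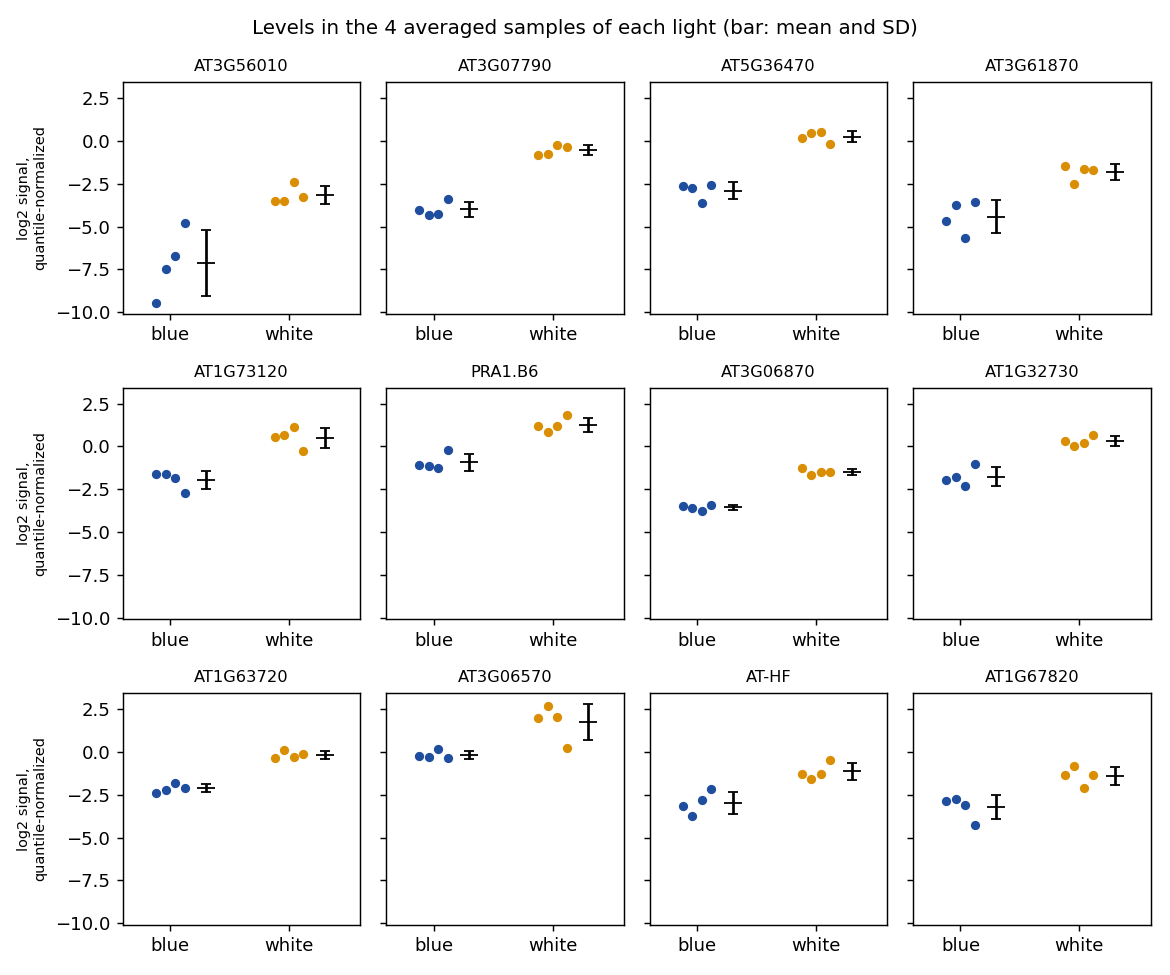
Log2 quantile-normalized level (vertical axis) of the 12 genes with the largest mean differences, in the 4 averaged samples of blue light (left, blue points) and of white light (right, orange points), with the mean and SD beside them. The averaged points of the 2 lights do not overlap in any of the 12 panels, a pattern that 18.0% of all features showed. These genes were picked for large differences, so nothing is read from it. Before averaging, single columns of the 2 lights overlapped for AT3G06570 and AT1G67820. AT3G56010 has the widest spread in blue light.

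Among genes of chloroplast and mitochondrial electron transfer, AT5G47890 encodes the B8 subunit of mitochondrial complex I, which passes electrons from NADH to ubiquinone. It had levels of -2.95, -2.26, -3.35 and -2.37 in blue light, against -0.93, -1.13, -0.80 and -0.95 in white light. White light samples were close together (SD 0.14) and the blue light samples more spread (SD 0.51). Its mean difference was -1.78 (SD 0.63), and -0.30 as deposited. Of 18 genes on a list of nuclear genes of complex I, 2 had a single-gene feature. The other, AT4G02580 of the 24 kDa subunit, was above 0 in 14 of 16 columns and so could not be chosen, and with its entries of 0 left out it differed by -3.37 (SD 0.81).

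AT1G54500 encodes a rubredoxin-like iron protein of the thylakoid membrane. Blue light levels were -2.15, -2.38, -2.20 and -1.10, against -0.79, -0.70, -0.54 and 0.81 in white light. Sample 4 was the highest in both lights, and the pair differences stayed close together (SD 0.23) around a mean of -1.65. The catalytic subunit of ferredoxin-thioredoxin reductase, which relays reducing power from photosystem I to chloroplast enzymes, is encoded by AT2G04700. Its difference was -1.55 (SD 0.48), and as deposited it was 0.07. It ranked at percentile 5.09 in blue light and 28.6 in white light, among the 25% of features with the lowest mean level.

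AT4G39690 encodes the plant counterpart of MIC60, a protein that shapes the inner membrane folds of mitochondria, and its feature had 1 of the 3 strongest signals among the 50. Its levels were 1.37, 0.24, 1.23 and 1.74 in blue light, against 2.19, 0.996, 2.53 and 3.24 in white light. Blue light samples 1, 3 and 4 lay above white light sample 2, so the groups overlapped, while sample 2 was the lowest in both lights and every pair showed the difference. The mean was -1.09 (SD 0.36), at -2.10 with median centring and -0.63 as deposited.

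Among the metabolic enzymes, AT-HF, also called HISN4, makes imidazole glycerol phosphate in the synthesis of histidine. Its levels were -3.15, -3.74, -2.82 and -2.18 in blue light, against -1.29, -1.57, -1.26 and -0.44 in white light. Sample 2 was the lowest and sample 4 the highest in both lights, and the groups did not overlap. The mean difference was -1.83 (SD 0.26, 3.56-fold), and -0.29 as deposited.

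Of 3 alpha/beta hydrolase genes, AT5G38360 had the strongest signal among the features of the 50 genes, which does not rank the genes by transcript abundance. It had levels of 2.87, 2.93, 2.46 and 3.44 in blue light, against 4.19, 4.12, 4.10 and 4.24 in white light. The white light samples spanned little (SD 0.07) and lay above all blue light samples. Its mean difference was -1.24 (SD 0.34), and its rank differed little, at percentile 98.3 in blue light and 99.3 in white light. Deposited signal ran from 6.33 to 13.7 units with a median of 9.42 over the 8 blue light columns, and from 7.05 to 34.4 with a median of 21.7 over the 8 white light columns. At this bright end of the array the size depended on the scaling, with -2.44 under median centring and -1.07 under cyclic loess.

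AT5G19050, the next alpha/beta hydrolase gene, had levels of -2.40, -3.39, -3.20 and -2.20 in blue light, against -1.01, -0.89, -2.12 and -0.60 in white light. Blue light sample 4 was closest to white light sample 3, at 0.08 below it. The averaged samples thus did not overlap, but single columns of the 2 lights did. The mean difference was -1.65 (SD 0.61), and -0.15 as deposited. AT1G32190, the third of them, was at -1.14 (SD 0.28), but 0.30 as deposited.

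Sugar and redox enzymes completed the metabolic group. AT1G04420, of the aldo-keto reductase family, was at -1.45 (SD 0.80), with -2.59 in pair 2 and -0.72 in pair 3, and at 0.13 as deposited. Without sample 2 of both lights its difference was -1.08. Its deposited signal in blue light ran from 0.0572 to 0.325 units, with a median of 0.259. AT1G11730, of a galactosyltransferase family, was at -1.43 (SD 0.59), and its groups overlapped because blue light sample 3 (-0.77) lay above white light sample 4 (-0.90). AT5G66530, a galactose mutarotase-like gene, was at -1.39 (SD 0.35), and at 0.0829 as deposited.

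In membrane traffic and folding, PRA1.B6 encodes a prenylated RAB acceptor, a small membrane protein of the secretory pathway that binds RAB GTPases. Its levels were -1.11, -1.14, -1.26 and -0.18 in blue light, against 1.19, 0.84, 1.17 and 1.81 in white light. Sample 4 was the highest in both lights, and the pair differences stayed between -2.43 and -1.98. The mean was -2.17 (SD 0.23, 4.51-fold), and -1.24 as deposited. PRA1.B3, the other gene with a PRA1 symbol and a single-gene feature, met the same limits at -2.51 (SD 0.04) and is not counted among the 50. Relatives under other symbols were not searched for.

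AT5G19370 encodes a protein with a rhodanese domain and a prolyl isomerase domain of the PpiC type, which helps proteins fold. Its levels were -2.72, -3.25, -3.66 and -3.36 in blue light, against -1.43, -1.65, -2.63 and -2.82 in white light. Blue light sample 1 lay above white light sample 4, so the groups overlapped. On average the difference was -1.11 (SD 0.45), and as deposited the gene was 0.46 higher in blue light.

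Among the genes given by locus only, AT3G56010 had the largest difference of the 50 after quantile normalization, and the weakest signal. Under median centring (-3.22), cyclic loess (-2.22), scaling to total signal (-2.46) and as deposited (-1.76) its difference was smaller than that of AT3G07790. In blue light its levels were -9.47, -7.46, -6.71 and -4.79, against -3.48, -3.51, -2.40 and -3.24 in white light. The groups did not overlap, but the pair differences ran from -5.98 to -1.54 around a mean of -3.95 (SD 1.83). Deposited signal was between 0.00173 and 0.0487 units in blue light, against 0.00911 to 0.220 in white light, and the mean rank was at percentile 0.25 in blue light and 8.24 in white light. With a pseudocount of 0.0764 (the 10th percentile of the deposited values above 0) added to the deposited values, the difference of AT3G56010 was -1.14.

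AT5G36470 combined a large difference with a level well inside the array's range. It had levels of -2.63, -2.74, -3.61 and -2.60 in blue light, against 0.19, 0.47, 0.54 and -0.17 in white light. The lights were 2.43 apart at their closest. Its mean difference was -3.15 (SD 0.74, 8.90-fold), with the gene at percentile 11.4 in blue light and 86.8 in white light, and it was -1.91 as deposited.

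AT3G61870 had levels of -4.66, -3.76, -5.67 and -3.57 in blue light, against -1.46, -2.51, -1.66 and -1.70 in white light. Pair 2 showed -1.24 and pair 3 showed -4.01, so the mean of -2.58 had an SD of 1.25. It was -0.78 as deposited. AT1G73120 had levels of -1.62, -1.59, -1.83 and -2.74 in blue light, against 0.55, 0.66, 1.14 and -0.26 in white light. Sample 4 was the lowest in both lights, and the mean difference was -2.47 (SD 0.36).

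Among the 12 largest differences, that of AT3G06870 varied least between pairs. Its levels were -3.46, -3.60, -3.75 and -3.41 in blue light, against -1.26, -1.65, -1.51 and -1.49 in white light, and the SD within each light was 0.16. The mean difference was -2.08 (SD 0.17). As deposited it was -0.50.

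AT1G32730 had levels of -1.96, -1.76, -2.29 and -1.01 in blue light, against 0.34, 0.04, 0.19 and 0.69 in white light, a mean difference of -2.07 (SD 0.38). For AT1G63720 they were -2.38, -2.21, -1.82 and -2.09 in blue light, against -0.37, 0.09, -0.31 and -0.11 in white light, a mean difference of -1.95 (SD 0.33). Neither gene's groups overlapped, and both kept a negative difference as deposited, at -0.90 and -0.62.

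The remaining genes without a stated role had mean differences between -1.82 and -1.02. AT1G51080 (-1.82), AT4G32340 (-1.55), AT3G47100 (-1.52), AT1G72020 (-1.51), AT5G19540 (-1.44), AT4G38490 (-1.39), AT3G56250 (-1.36), AT2G04360 (-1.35) and AT1G03660 (-1.35) were in the upper part of that range. AT3G09490 (-1.27), AT5G55570 (-1.23), AT2G36480 (-1.21), AT1G70350 (-1.16), AT1G49870 (-1.10), AT3G51510 (-1.04), AT2G18920 (-1.04), AT4G05070 (-1.03) and AT4G27390 (-1.02) were nearer the limit. As deposited, AT1G51080, AT4G32340, AT1G72020, AT5G19540, AT5G55570 and AT2G36480 were lower in blue light and the others of these genes higher. AT4G32340 also belongs to a feature that the annotation pairs with 3 further genes, and that feature went the other way, at 1.83 (SD 1.25). Which of the 4 genes that shared feature reports cannot be told apart.

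Mean level did not set the 50 genes apart from the other features. Their median level over both lights was -1.34, against -1.32 over all features, with 15 of the 50 among the 25% of features with the lowest level and 10 among the 25% with the highest. Of the 12 genes with the largest differences, 6 were among the 25% of lowest level, AT3G56010, AT3G07790 and AT3G61870 among them. Within blue light the SD between averaged samples was 0.45 for the median gene and 0.40 for the median feature. Within white light the same SD was 0.46 for the median gene and 0.47 for the median feature. Columns averaged together differed less. Their SD for the median gene was 0.13 under blue light and 0.18 under white light, and for the median feature 0.13 under blue light and 0.28 under white light. Single genes went far above these medians, with 1.22 for AT1G67820 under blue light and 1.07 for AT3G56010 and AT3G56250 under white light.

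**Figure D3:**
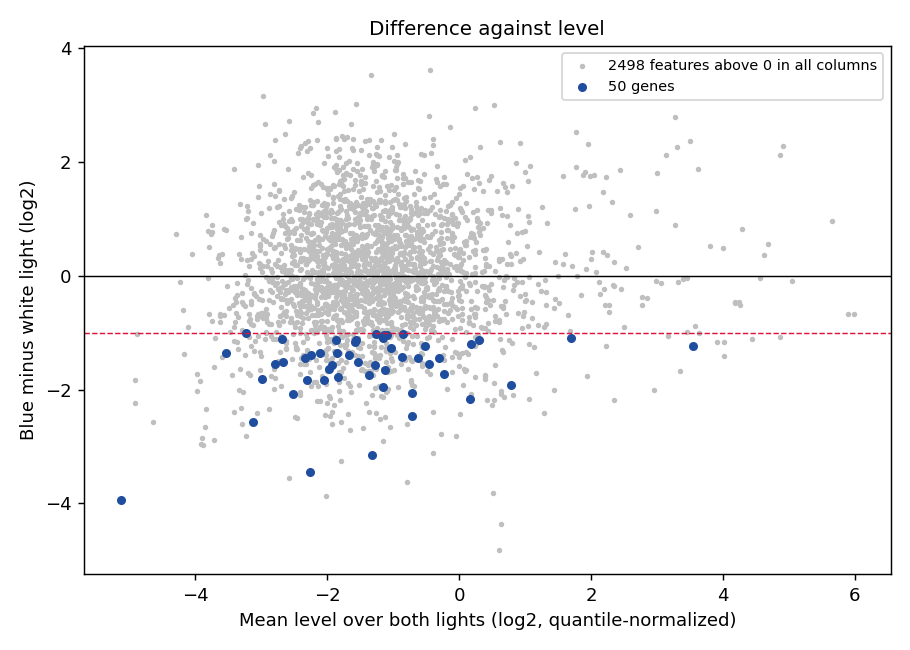
Mean blue minus white light difference (log2, vertical axis) against the mean level over both lights (log2, quantile-normalized, horizontal axis) for 2498 features (grey) and the 50 genes (blue). The genes spread over the whole range of levels, from AT3G56010 at the dim end to AT5G38360 at the bright end; the dashed line marks the limit of -1.

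For 41 of the 50 genes every blue light sample lay below every white light sample, a pattern that 18.0% of all features showed. Since the choice fixed the direction in each pair, nothing is read from that count. In the other 9 genes (AT4G32340, AT1G11730, AT2G04360, AT2G25640, AT5G19370, AT4G39690, AT2G18920, AT4G05070 and AT4G27390) the groups overlapped although each pair kept its direction. The same sample number was highest in both lights for 46% of the 50 genes, near the 39.1% of all features. The limit on every pair favours such genes, so nothing is read from the shares here. Sample 4 was the highest of its group in both lights in 16 of the 50 genes (32%), beside 21.1% of all features. It was the lowest in both in 10 genes (20%), beside 16.1% of all features. The difference was largest in pair 2 for 21 genes, in pair 3 for 14, in pair 4 for 8 and in pair 1 for 7. Pair medians over the 50 genes ran from -1.62 in pair 2 to -1.33 in pair 1.

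By limma across all 2498 features, 437 features (17.5%) were lower in blue light at an adjusted p below 0.05, and 47 of the 50 genes were among them. With the sample number as a block it was 563 features (22.5%) and 50 of 50 genes. The genes were selected on this contrast, so these counts say nothing further about them. The standard error of the median gene was 0.32 without and 0.23 with the block.

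Genes at the edges of the choice were little different from those beyond it. Just inside the limit of -1 were AT4G27390 (-1.02), AT4G30680 (-1.02) and AT4G05070 (-1.03), and just outside it, with every pair below -0.5, were AT3G26580 (-0.98), AT4G26370 (-0.98) and AT2G35490 (-0.97). In their weakest pair, AT5G55570 (-0.52), AT3G06570 (-0.54) and AT5G19370 (-0.54) lay just inside the limit of -0.5. AT1G18290 (-0.44), AT1G67930 (-0.43) and AT2G37420 (-0.38) lay just outside it, with means between -1.20 and -1.08. In all, 13 further genes had every pair below -0.5 but a mean above -1, and 8 had a mean of at most -1 but a weaker pair.

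**Figure D4:**
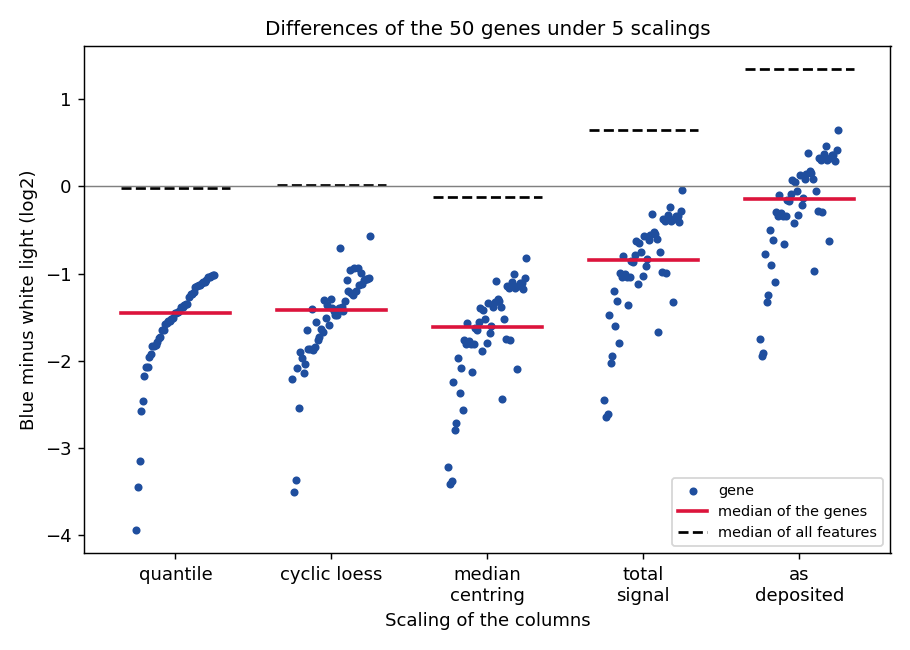
Blue minus white light difference (log2, vertical axis) of the 50 genes under 5 scalings of the columns (horizontal axis). Each point is a gene in the order of its quantile-normalized difference; red lines are medians of the 50 genes and dashed lines medians of all 2498 features. Red lines lie at -1.45, -1.42, -1.61, -0.84 and -0.14 from left to right, below the dashed line in each column. The genes were chosen as low on these same arrays, so nothing is read from that position.

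All 50 genes were lower in blue light under median centring, cyclic loess and scaling to total signal, and 49, 44 and 19 of them by at least 1. The genes were chosen as low in blue light on these same columns, so these counts give no independent support. Shares of all features lower under these 3 scalings were not counted. As deposited, 30 were lower, and 6 of these by at least 1: AT3G07790, AT5G36470, AT3G56010, AT1G73120, PRA1.B6 and AT3G06570. The median feature itself was at -0.12 under median centring, 0.02 under cyclic loess, 0.65 under scaling to total signal and 1.35 as deposited. Which of these levels represents equal RNA cannot be told apart from these values.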

How the data were processed

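Linear intensities were deposited by the authors for 3439 features in 16 columns. The sources used here name no background correction, scaling or image analysis. Between 11.7% and 16.7% of a column's features were listed at exactly 0. The platform annotation paired 1 gene with 692 features, several with 870 and none with 1877. Of the 692, 690 were matched through the TAIR10.1 gene annotation, 49 of the 50 genes described among them (AT1G03660 was not). Roles come from general knowledge of Arabidopsis, since the tables hold none, and function groups could not be counted over all features as planned.

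Features above 0 in all 16 columns (2498) were put on the log2 scale and quantile-normalized, and replicates 1 and 2, 3 and 4, 5 and 6, 7 and 8 of each light were averaged. Members and lists were chosen with earlier results of these data known. Of the 8 genes the rule leaves out, 2 met its limits. Values in every sample were given for the 12 largest differences, the 2 largest in each function group and the 3 highest levels; IAA31 was added after its values were seen.

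limma 3.58.1 in R 4.3.3 (lmFit, eBayes, Benjamini-Hochberg, threshold 0.05) was run on all 2498 features and tested on simulated data. Same-numbered samples of the 2 lights deviated together, with correlations of 0.40, 0.49, 0.20 and 0.41, against -0.31 to 0.17 between other numbers. All same-numbered values passed the limit of 0.1 set for pairing, but so did the highest value between other numbers. The value of sample 3 (0.20) was close to that one. The labels state no pairing, so it is not established. Alternatives covered scaling, entries of 0, dim features, averaging, the block and each sample left out. Precision is limited by the number of arrays.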

Additional observations from a re-analysis of the deposited data

Results flagged for a closer look

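Of 100 groups of 4 averaged samples (50 genes in 2 lights), 9 held a sample far from the other 3. Over all 2498 features it was 367 of 4996 groups (7.35%), and chance gives about 5% of groups that vary independently, which these do not, since they share samples. In blue light, sample 3 was low for AT5G36470 (-3.61, others -2.74 to -2.60), AT5G19540 (-1.88, others -1.20 to -1.11) and AT5G15390 (-3.09, others -2.27 to -2.18), and high for AT3G06570 (0.16, others -0.32 to -0.25). Blue light sample 4 was high for PRA1.B6 (-0.18, others -1.26 to -1.11) and AT5G53920 (-1.16, others -1.93 to -1.81), and low for AT3G25840 (-2.74, others -1.89 to -1.77). Blue light sample 2 was low for AT1G04420 (-4.03, others -2.83 to -2.60). For this gene the blue light columns averaged together disagreed, with an SD of 0.88 against 0.13 for the median gene. White light sample 4 was high for AT1G54500 (0.81, others -0.79 to -0.54).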

How the results depend on the processing

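The count of 50 genes was 66 with median centring (48 of the 50 among them), 42 with cyclic loess (41), 41 with 16 separate columns, 35 without the 25% of lowest level, 57 with features above 0 in at least 6 of 8 columns per light, and 68 with a local median subtracted (40), a setting chosen after seeing the data. It was 1 without normalization, 13 scaled to total signal, 30 with the pseudocount and 126 features with several-gene features kept. Leaving out 1 averaged sample of both lights gave 51 to 60. The median difference of the 50 genes was -1.61 with median centring, -0.14 without normalization, -0.84 scaled to total signal and -1.13 with the pseudocount. It ran from -1.52 to -1.40 with a sample left out. Features called by limma numbered 437 lower and 421 higher, against 37 and 1367 without normalization, 199 and 982 scaled to total signal, 674 and 645 with 16 separate columns, and 563 and 569 with the replicate block. With a sample left out they ran from 239 to 509 lower and from 235 to 493 higher, lowest without sample 1 of both lights, followed by 259 and 249 without sample 2 and 274 and 249 without sample 3. In this balanced design the block cannot change a mean difference. Without normalization 20 genes were higher in blue light: AT2G04700 (0.0689), AT3G47100 (0.0542), AT1G04420 (0.13), AT5G66530 (0.0829), AT4G38490 (0.14), AT3G56250 (0.39), AT2G04360 (0.18), AT1G03660 (0.15), AT3G09490 (0.0907), AT1G70350 (0.33), AT1G32190 (0.30), AT5G15390 (0.38), AT5G19370 (0.46), AT1G49870 (0.30), AT5G53920 (0.32), AT3G51510 (0.35), AT2G18920 (0.36), AT4G05070 (0.29), AT4G30680 (0.42) and AT4G27390 (0.65). The cause was not tested. Of the 50 genes, 15 were among the 25% of features with the lowest level, where the signal over background is unknown.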

Other observations

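Allowing entries of 0 in up to 2 columns per light brought in 8 genes beyond the 50, each above 0 in 14 or 15 of the 16 columns. AT4G02580 had the largest difference of these (-3.37), followed by AT5G59060 (-2.71), AT5G17630 (-2.52), AT1G01500 (-2.28), AT1G32220 (-2.22), AT5G48830 (-2.08), AT1G50510 (-1.92) and AT3G03890 (-1.80). The SD over the 4 pairs was 0.36 for AT3G03890 and between 0.81 and 1.598 for the others, so AT3G03890 was the most even of them. An entry of 0 can be a failed estimate, and entries of 0 were left out of these averages. No 2 of the 49 genes matched to the gene table lay within 10 protein-coding genes of each other.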
